A study of Mus musculus with 9 samples.

Results

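The 9 genes described here, Brdt, Kat5, Epc1, Kat8, Rnf8, Chd5, Smarca5, Hdac2 and Hdac3, were chosen by name for their known roles in the acetylation and removal of histones in spermatids. They are 9 of the 32035 genes measured by RNAseq in whole mouse testis. The rule that lists them uses no measured value, but the choice was made with earlier results of these data known. The samples came from males aged 15 weeks in 3 groups of 3: C57Bl6/N wild type (WT), Kpna6 ΔIBB/ΔIBB and Kpna6 −/−. Kpna6 encodes importin α7, an adaptor that carries proteins into the nucleus. In Kpna6 ΔIBB/ΔIBB mice exon 2 is deleted, and a truncated protein without the importin β binding domain is made. Kpna6 −/− mice carry a gene trap in intron 1. By the account of the study, an alternative first exon still gives the full-length protein in the germ cells of this line, so it is a model of loss outside the germ line. Both lines had been backcrossed to C57Bl6/N for 10 generations. Every cell of a ΔIBB/ΔIBB male carries the deletion, so a comparison with WT alone cannot assign its effects to germ cells or somatic cells. The study compared the lines with each other, and crossed them, to separate effects in germ cells from those in Sertoli cells.

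When a round spermatid elongates, its histones are heavily acetylated, loosened from the DNA and exchanged for transition proteins and then protamines. Acetyltransferases of the NuA4 complex (the catalytic subunit KAT5 and the scaffold subunit EPC1) and of the MSL and NSL complexes (KAT8, also called MOF) add acetyl groups, mainly to histones H4 and H2A. BRDT, a testis-specific protein of the bromodomain family, binds the acetylated histone H4 tail and compacts the acetylated chromatin. RNF8 is a RING-type ligase that attaches ubiquitin to histones, CHD5 and SMARCA5 (SNF2H) are ATP-driven remodelers of nucleosomes, and HDAC2 and HDAC3 are deacetylases that take the acetyl groups off again. The study reported no difference between ΔIBB/ΔIBB and WT spermatids in the hyperacetylation of histones H3 and H4. The values below are RNA levels and do not measure acetylation.

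Estimated counts on genes ranged from 24859751 to 31484692 per library. Levels are given as CPM, estimated counts scaled to a common library total and by TMM over the 9 libraries, which can be compared between libraries for a gene, and as TPM, which also accounts for transcript length and can be compared between genes. Kpna6 itself stood at 201, 325 and 334 CPM in the WT libraries, at 81.2, 85.3 and 81.8 in ΔIBB/ΔIBB and at 247, 248.8 and 262 in −/−. WT replicate 1 therefore lay below all 3 −/− libraries for the targeted gene, whereas the other WT libraries lay above them. The value of this library for the targeted gene did not match that of its group, and whether its genotype is the one on its label could not be checked here, which bears on every comparison with WT. Kpna6 fell in ΔIBB/ΔIBB (log2 fold change −1.79, SE 0.15, adjusted P = 1.94e-05 by the edgeR quasi-likelihood test with Benjamini-Hochberg adjustment), and the −/− line gave −0.18 (adjusted P = 0.586), which became −0.38 (adjusted P = 0.000345) without WT replicate 1. Values without this library are given for Kpna6, Brdt, Chd5, Hdac3 and Hdac1, and for the number of genes called in −/−. Most other values against WT, among them the sublist, marker and X-linked counts, are given only with it.

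All 9 genes were expressed in every library. Per length, Brdt was the most abundant in WT testis with 210.0 ± 3.69 TPM (SD, n = 3), followed by Chd5 with 166 ± 20.6, Kat8 with 105 ± 3.12, Epc1 with 47.5 ± 4.42 and Kat5 with 47.1 ± 1.55. Hdac3 (34.9 ± 1.39), Smarca5 (33.4 ± 2.41) and Hdac2 (31.3 ± 1.91) formed a group, and Rnf8 was lowest with 20.0 ± 0.35 TPM. The WT libraries of Epc1 and Kat5, of Hdac3 and Smarca5, and of Smarca5 and Hdac2 overlapped in TPM, and the other neighbours in this order did not. Among the 16602 genes with a mean of at least 1 TPM in WT, Brdt exceeded 94.4% and Rnf8 60.9%.

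The order at the top partly rests on short transcripts. Chd5-204, a processed transcript of 280 bases, made 39.3% of the TPM of Chd5 in WT and 0.352% of its estimated counts. Epc1-202, with 565 bases, made 61.9% of the TPM of Epc1 and 14.2% of its counts. When only transcripts of at least 600 bases were summed, a limit chosen after the values were seen, Chd5 stood at 100.4 ± 5.75 TPM beside 105 ± 3.12 for Kat8, and Epc1 at 17.98 ± 0.32 beside 16.45 ± 0.97 for Rnf8. Brdt remained highest with 161 ± 1.17 TPM. The order in the other groups was nearly that of WT: Brdt, Chd5 and Kat8 led and Rnf8 was last in both lines, and Hdac2 stood above Smarca5 in both.

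**Figure D1:**
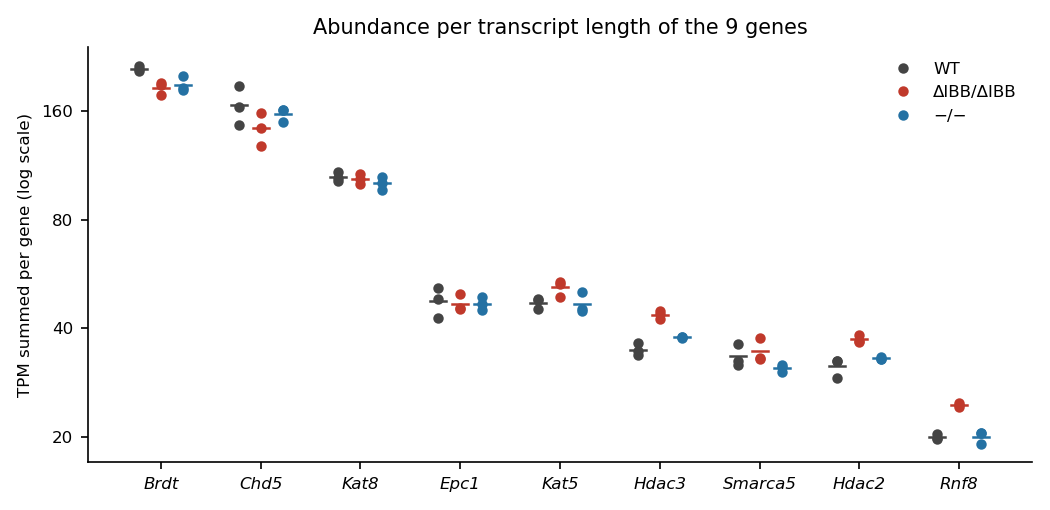
TPM summed per gene (log scale) for the 9 genes, ordered by their WT mean, in the 3 libraries of each group (points) with the group mean (dash). Brdt and Chd5 lie highest and Rnf8 lowest in all 3 groups.

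Brdt, Chd5 and Kat8 were lower and Hdac3 was higher in ΔIBB/ΔIBB than in WT testes, the comparison that asks what loss of the full-length importin changes. These 4 of the 9 genes passed an adjusted P of 0.05 (3 lower, 1 higher) beside 36.6% of all 18797 genes tested (18.9% lower and 17.7% higher), so the share among the 9 was close to that of all genes. At an unadjusted P under 0.05 there were 5 (Rnf8 in addition), beside 45.9%. The groups did not overlap in CPM for 7 of the 9, beside 50.0% of all genes. The changes were small. Brdt, with the largest, fell by 16.8%, and the median log2 fold change of the 9 genes was −0.05, beside 0.01 for all genes. TMM sets the middle of all genes near 0. With scaling by library size alone the median of all genes was 0.11, so every value here is relative to that middle. All genes called split into 3327 higher and 3547 lower with TMM, 5416 and 2326 with library size alone, and 3847 and 1572 with limma on TPM, and the 9 genes into 1 higher and 3 lower, 3 and 2, and 3 and 1.

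**Figure D2:**
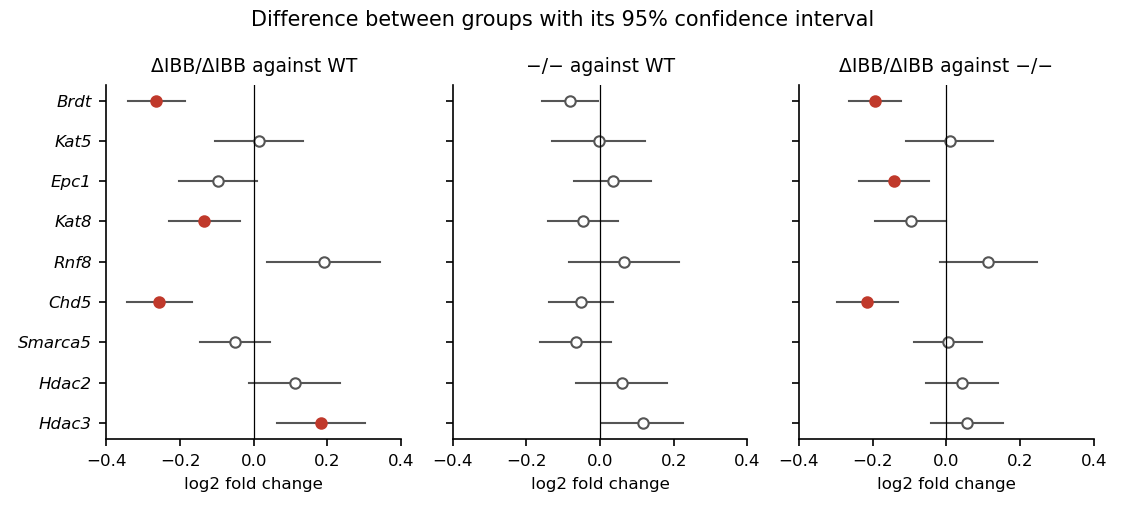
Log2 fold change of the 9 genes with its 95% confidence interval in the 3 comparisons, where filled points passed an adjusted P of 0.05. Brdt and Chd5 lie left of 0 in both comparisons that hold ΔIBB/ΔIBB, and no point is filled for −/− against WT.

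Brdt (chr5:107331159-107387058 in GRCm38, plus strand), the reader of acetylated histones, showed the narrowest spread relative to its change. Its level was 298, 305 and 299.9 CPM in the WT libraries, 245, 253 and 251 in ΔIBB/ΔIBB, and 282, 284 and 289 in −/−. Every ΔIBB/ΔIBB library lay below every other library, and the −/− libraries lay between. Against WT, Brdt fell in ΔIBB/ΔIBB by 0.26 on the log2 scale (SE 0.03, 95% confidence interval −0.34 to −0.19, adjusted P = 0.000208, edgeR with Benjamini-Hochberg adjustment), and it remained lower under each of 15 alternative analyses. Without WT replicate 1 the value was −0.27 (adjusted P = 0.000604).

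The bases before the annotated start of Brdt are shown because it and Chd5 are the 2 of the 9 genes that fell both against WT and against −/−. The sequence is from RefSeq, GRCm38.p6, chr5:107330944-107331158, plus strand, 5′ to 3′, with the E-box CACGTG in capitals.
Brdt: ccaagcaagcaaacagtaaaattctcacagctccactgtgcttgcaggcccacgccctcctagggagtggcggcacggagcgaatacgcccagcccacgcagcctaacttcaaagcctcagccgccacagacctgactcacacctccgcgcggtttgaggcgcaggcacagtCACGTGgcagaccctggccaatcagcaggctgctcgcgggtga
This E-box begins 78 bases before the RefSeq start, which lies within the annotated gene, and occurs, on either strand, in 6.02% of 32851 windows of 250 bases before a RefSeq start. Neither the cyclic AMP response element TGACGTCA (in 1.55% of windows) nor its shorter form TGACG (in 17.8%) was found in the window of Brdt. Of the genes whose windows were searched, which leave out Epc1 and Hdac3, Kat5 holds the E-box as well, 186 bases before its start. The level of Kat5 did not differ between the groups beyond its spread. The match is a description of letters and not of a bound site, and a link between it and the level of either gene was not tested.

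Of Kat5, Epc1 and Kat8, Kat8 alone was called in ΔIBB/ΔIBB against WT. Kat8 (chr7:127912516-127925837) stood at 108, 111 and 109 CPM in WT, at 96.0, 99.3 and 103 in ΔIBB/ΔIBB and at 109.7, 106.3 and 101.7 in −/−. The ΔIBB/ΔIBB libraries lay below the WT libraries by a small margin. Kat8 fell by 0.13 on the log2 scale (SE 0.04, edgeR adjusted P = 0.0317), and the call was lost with library-size scaling (−0.04, adjusted P = 0.514), on TPM with limma (−0.02, adjusted P = 0.799) and when WT replicate 2 (−0.13, adjusted P = 0.0851), WT replicate 3 (−0.14, adjusted P = 0.0696), ΔIBB/ΔIBB replicate 1 (−0.11, adjusted P = 0.121) or ΔIBB/ΔIBB replicate 2 (−0.13, adjusted P = 0.0948) was left out.

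Epc1 (chr18:6435951-6516108), the NuA4 scaffold, stood at 48.9, 51.4 and 49.7 CPM in WT, at 47.0, 47.0 and 45.9 in ΔIBB/ΔIBB and at 52.1, 51.0 and 50.6 in −/−. The ΔIBB/ΔIBB libraries were the 3 lowest of the 9, and the WT and −/− libraries overlapped. The difference from WT was −0.10 (95% confidence interval −0.20 to 0.01) and did not pass (edgeR adjusted P = 0.142). Its coding transcripts went different ways and none passed. Against WT, Epc1-201 (58.0% of WT counts) had 0.20, Epc1-202 −0.16 and Epc1-203 (24.4%) −1.04. Against −/−, the values were 0.01, −0.13 and −0.70 in the same order. Kat5 (chr19:5603014-5610237), the catalytic subunit of the same complex, has 1 transcript in the files and was at 70.4, 70.2 and 64.3 CPM in WT, 71.0, 70.0 and 65.4 in ΔIBB/ΔIBB, and 73.3, 65.5 and 65.7 in −/−. All 3 groups of Kat5 overlapped, and its difference between ΔIBB/ΔIBB and WT was 0.01 with a 95% confidence interval from −0.10 to 0.13 (edgeR adjusted P = 0.856).

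Rnf8 (chr17:29614790-29644991), the ubiquitin ligase, stood at 19.6, 19.0 and 21.1 CPM in WT, at 22.1, 23.7 and 22.1 in ΔIBB/ΔIBB and at 20.6, 20.4 and 21.6 in −/−. Every ΔIBB/ΔIBB library lay above every other library, yet the difference from WT, 0.19 (SE 0.07), missed the threshold (edgeR adjusted P = 0.0541). Rnf8 shares 1214 identical bases with the overlapping gene Gm28043, and with the counts of both summed the same fit gave 0.19 and passed (adjusted P = 0.0151). It also passed with library-size scaling (0.29, adjusted P = 0.00856), on TPM with limma (0.28, adjusted P = 0.00839), with all 9 samples in 1 fit (adjusted P = 0.0343) and without WT replicate 3 (0.23, adjusted P = 0.0472).

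Chd5 (chr4:152338651-152390194, plus strand), the CHD-family remodeler, had 728, 751 and 785 CPM in the WT libraries. The ΔIBB/ΔIBB libraries stood at 644, 604 and 640.4 CPM and the −/− libraries at 758, 701 and 726. As with Brdt, each ΔIBB/ΔIBB library lay below all 6 others, whereas WT and −/− overlapped. Chd5 fell against WT by 0.26 on the log2 scale (SE 0.04, 95% confidence interval −0.34 to −0.17, edgeR adjusted P = 0.000613), that is, it fell by 16.3%. Only limma on TPM, of 15 alternatives, lost this call (−0.21, adjusted P = 0.176). Chd5 lies 22.7 Mb from Kpna6 on the same chromosome. WT replicate 1 was the lowest WT library for Chd5, and without it the value was −0.285 (adjusted P = 0.000783).

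The window before Chd5 is shown with the X-box GTTGCCACAGCAAC and the shorter response element, which reads CGTCA on this strand, in capitals (RefSeq, GRCm38.p6, chr4:152338401-152338650, plus strand, 5′ to 3′). The X-box, searched on both strands with any letters in place of its 3 central bases, is the element bound by RFX factors, and the cyclic AMP response element by CREM, both transcription factors of spermatids.
Chd5: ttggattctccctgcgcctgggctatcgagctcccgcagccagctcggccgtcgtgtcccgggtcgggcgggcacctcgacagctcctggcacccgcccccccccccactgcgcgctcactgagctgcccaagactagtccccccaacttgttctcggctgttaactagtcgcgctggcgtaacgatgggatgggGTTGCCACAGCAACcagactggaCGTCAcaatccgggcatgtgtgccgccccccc
The X-box begins 55 bases and the shorter response element 32 bases before the start, and the 2 do not overlap. This X-box form was found in 39 of 32851 windows, or 0.119%, and the shorter response element in 17.8%. Of the 7 genes whose windows were searched (Epc1 and Hdac3 were not used here), Chd5 was the only one with the X-box, and none held the whole cyclic AMP response element. The shorter form was also found before Kat5 (where it overlaps the E-box), Kat8 and Smarca5. The motifs were chosen after the values were seen. These matches too describe letters, and whether any factor binds them in these testes was not tested.

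Smarca5 (chr8:80698507-80739497), the ISWI ATPase, did not differ beyond its spread. It stood at 135, 138 and 143 CPM in WT, at 131, 138 and 131 in ΔIBB/ΔIBB and at 126, 136 and 135 in −/−, and the 3 groups overlapped. Its difference between ΔIBB/ΔIBB and WT was −0.05 (95% confidence interval −0.15 to 0.04, edgeR adjusted P = 0.38), and the sign turned with library-size scaling (0.05). Its 6 processed pseudogenes, which share 96.8 to 98.1% of the aligned bases, held mean counts of 22.2 to 143 per library beside 3936 for Smarca5.

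Both deacetylase genes among the 9 had higher values in ΔIBB/ΔIBB than in WT, and Hdac3 passed the test. Hdac3 (chr18:37935844-37955016), the deacetylase of the nuclear receptor corepressor complex that holds NCOR1, stood at 50.7, 54.5 and 50.01 CPM in WT, at 60.2, 56.0 and 59.4 in ΔIBB/ΔIBB and at 56.2, 56.0 and 56.2 in −/−. All libraries of both lines lay above all WT libraries. Hdac3 rose in ΔIBB/ΔIBB by 0.18 on the log2 scale (SE 0.05, edgeR adjusted P = 0.0218), and the call was lost on protein-coding transcripts alone (0.16, adjusted P = 0.0513) and without WT replicate 1 (0.17, adjusted P = 0.0547), WT replicate 3 (0.16, adjusted P = 0.0701), ΔIBB/ΔIBB replicate 1 (0.16, adjusted P = 0.0806) or ΔIBB/ΔIBB replicate 3 (0.17, adjusted P = 0.0526).

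Hdac2 (chr10:36974544-37001889), a deacetylase of the NuRD, SIN3 and CoREST complexes, stood at 48.3, 42.8 and 46.5 CPM in WT, at 48.9, 49.7 and 49.4 in ΔIBB/ΔIBB and at 48.3, 46.4 and 48.7 in −/−. The ΔIBB/ΔIBB libraries were the 3 highest, with −/− replicate 3, −/− replicate 1 and WT replicate 1 within 1 CPM below them. The difference from WT was 0.11 (95% confidence interval −0.01 to 0.23, edgeR adjusted P = 0.144), and it passed only with library-size scaling (0.21, adjusted P = 0.0158) and on TPM with limma (0.245, adjusted P = 0.0232).

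**Figure D3:**
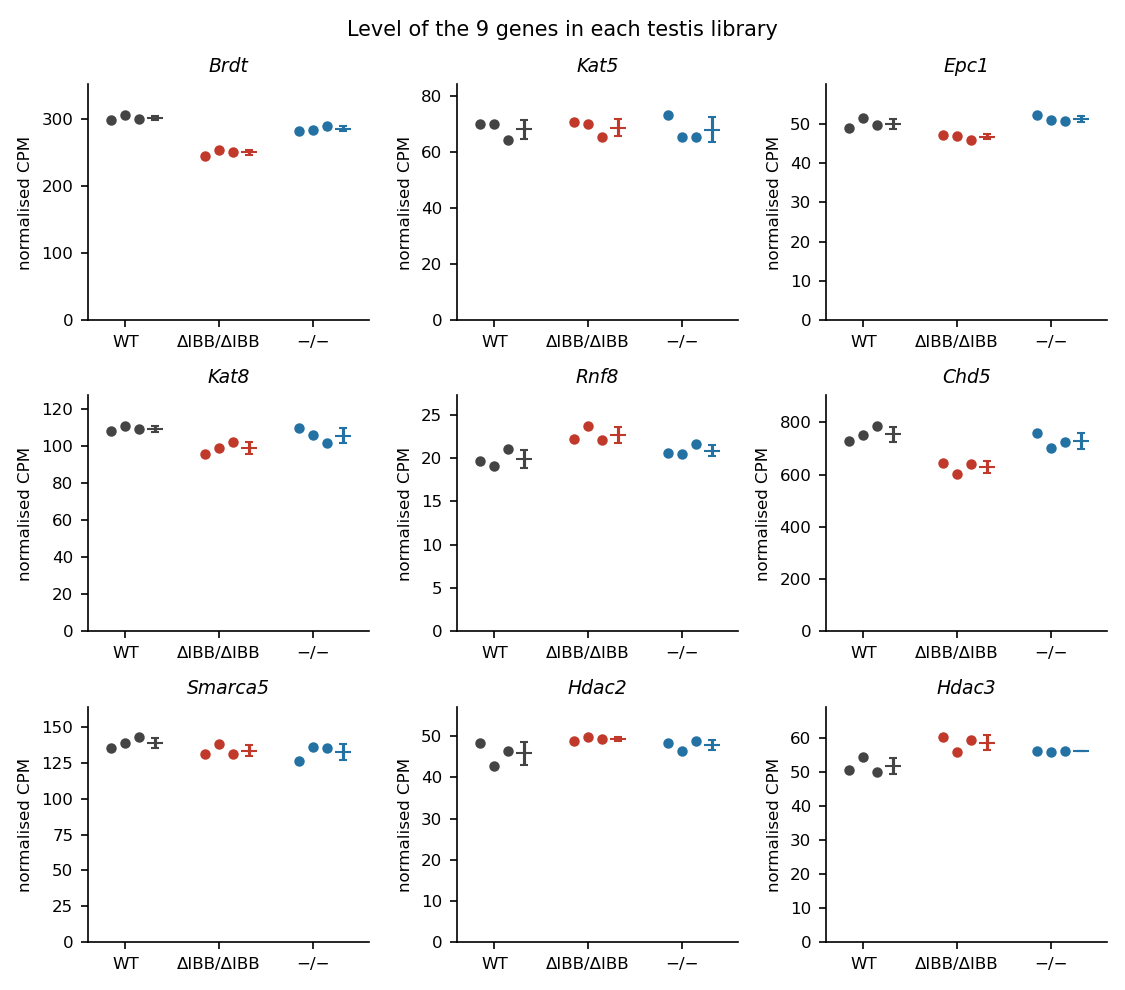
Normalised CPM of the 9 genes in every library (points, replicates 1 to 3 from left to right), with the group mean and SD (dash and bar) and each axis starting at 0. The ΔIBB/ΔIBB points of Brdt and Chd5 lie below all others, and those of Rnf8 and Hdac2 above all others.

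At the level of transcripts, 31 of the 40 listed for the 9 genes had counts enough to test, and 5 passed in ΔIBB/ΔIBB against WT, beside 9.73% of all transcripts. Both main coding transcripts of Brdt fell: Brdt-201, of 4745 bases and 55.6% of the gene's counts in WT, by 0.22 (adjusted P = 0.0166), and Brdt-202, of 1607 bases and 42.3% of the counts, by 0.29 (adjusted P = 0.0107, edgeR). The same held for Chd5, whose transcripts Chd5-201 (9122 bases, 70.5% of the counts) and Chd5-202 (9486 bases, 26.6%) fell by 0.23 (adjusted P = 0.0488) and 0.31 (adjusted P = 0.00966). The shares of Brdt-201 and Brdt-202 in the TPM of Brdt were alike in the 3 groups, at 21.3, 22.2 and 23.2% for Brdt-201 and 54.4, 54.2 and 53.2% for Brdt-202 in WT, ΔIBB/ΔIBB and −/−.

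For Hdac3 the transcript that passed was Hdac3-203, which retains an intron and rose by 0.77 (SE 0.19, adjusted P = 0.0474, edgeR). It made 4.22 ± 0.52% of the TPM of Hdac3 in WT and 6.25 ± 0.61% in ΔIBB/ΔIBB (SD, n = 3). Its TPM was 1.22, 1.67 and 1.54 in WT, 2.69, 2.94 and 2.53 in ΔIBB/ΔIBB, and 1.57, 1.38 and 2.11 in −/−, and the ΔIBB/ΔIBB libraries lay above the rest. The coding transcript Hdac3-201, with 90.1% of the counts in WT, had 0.19 (adjusted P = 0.0814) and did not pass. The uncertainty of assigning reads among transcripts of a gene is not in these tests. Of the 5 transcripts called, between 2 and 4 passed when 1 library was left out, the fewest (2) without WT replicate 2, WT replicate 3 or ΔIBB/ΔIBB replicate 2.

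None of the 9 genes passed in −/− against WT testes, which asks what loss of the importin outside germ cells changes (edgeR, adjusted P of 0.05), beside 1.60% of 18681 genes tested (0.889% higher and 0.712% lower). The genes behind that share numbered 299, but 518 without WT replicate 1, 135 without WT replicate 2, 145 without WT replicate 3, 92 to 180 without 1 of the −/− libraries, 624 without a filter and 26 with limma on TPM, and none of the 9 passed without any 1 of the 6 libraries. At an unadjusted P under 0.05 there were 2 of the 9, beside 14.9% of all genes, and DESeq2 and limma called 0 as well. These were Brdt with −0.08 (SE 0.03, adjusted P = 0.301) and Hdac3 with 0.12 (SE 0.05, adjusted P = 0.308), the only genes of the 9 whose groups did not overlap, beside 20.0% of all genes. The other 7 lay between −0.07 (Smarca5) and 0.07 (Rnf8), and the widest 95% confidence interval, that of Rnf8, ran from −0.08 to 0.21. No transcript of the 9 genes was called, beside 0.0561% of all transcripts, and 4 had an unadjusted P under 0.05. Both comparisons with WT use the same 3 WT libraries, so their values are not independent.

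The direct comparison of the lines, ΔIBB/ΔIBB against −/−, does not use the WT libraries. Brdt, Chd5 and Epc1 were lower in ΔIBB/ΔIBB, so 3 of the 9 genes passed, all lower, beside 30.3% of all 18752 genes (16.8% lower and 13.5% higher). The same 3 had an unadjusted P under 0.05, beside 40.3% of all genes. Over all genes the split was 2523 higher and 3150 lower with TMM, 4931 and 2016 with library size alone, and 3681 and 1285 with limma on TPM. Brdt differed by −0.19 (SE 0.03, adjusted P = 0.000911), Chd5 by −0.21 (SE 0.04, adjusted P = 0.00127) and Epc1 by −0.14 (SE 0.04, adjusted P = 0.0287, edgeR with Benjamini-Hochberg adjustment). The groups of Brdt, Epc1, Chd5, Rnf8 and Hdac2 did not overlap, which is 5 of the 9 beside 44.5% of all genes. Of the rest, Kat8 came nearest to the threshold with −0.10 (adjusted P = 0.125), and Kat5 and Smarca5 lay at 0.01 and 0.005.

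The Epc1 call in this comparison was fragile. It was lost without any 1 of the 6 libraries (−0.15 to −0.13, adjusted P = 0.0536 to 0.0861), with DESeq2 (−0.14, adjusted P = 0.0825), without a filter on low counts (−0.14, adjusted P = 0.0584), with library-size scaling (−0.04, adjusted P = 0.49) and on TPM with limma (−0.001, adjusted P = 0.993). Brdt and Chd5 lost theirs only on TPM with limma (−0.025, adjusted P = 0.713, and −0.14, adjusted P = 0.228). On TPM that test called 3 other genes, all higher in ΔIBB/ΔIBB: Rnf8 (0.28, adjusted P = 0.0102), Hdac2 (0.17, adjusted P = 0.0265) and Hdac3 (0.205, adjusted P = 0.0146). Library-size scaling called these 3 together with Brdt and Chd5. One transcript of the 9 genes, Brdt-201, passed in this comparison (−0.21, adjusted P = 0.0263), beside 7.35% of all transcripts. This call was lost with library-size scaling, with the replicate block and without any 1 library other than ΔIBB/ΔIBB replicate 1.

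Markers of spermatids and of Sertoli cells also differed in ΔIBB/ΔIBB. Against WT, 9 of 10 round spermatid markers and 10 of 10 elongating spermatid markers fell in ΔIBB/ΔIBB (median log2 fold changes −0.39 and −0.37), among them Tnp1 (−0.59) and Prm1 (−0.36), and 12 of 12 Sertoli cell markers rose (median 0.59), among them Amh (1.78). Over all genes, 18.9% fell and 17.7% rose in this comparison. Summed over the elongating spermatid list, WT libraries had 72290 to 82570 TPM, ΔIBB/ΔIBB libraries 60590 to 68760 and −/− libraries 80780 to 82390. For the round spermatid list the sums were 2285 to 2517, 1988 to 2183 and 2230 to 2376 TPM in the same order of groups, and for the Sertoli list 732 to 813, 1140 to 1392 and 858 to 940.4 TPM. Library-size scaling left 8 of 10 round and 8 of 10 elongating markers lower, limma on TPM 5 and 7, and under both 1 round spermatid marker rose and all 12 Sertoli markers remained higher. The fall of Brdt and Chd5, by 0.26 each, was smaller than the median fall of either spermatid list. By PCR relative to Gapdh in adult testes, the study found no significant difference for Rhox5, Wt1, Clu, Gata1 and Cldn11 of the Sertoli list. It counted fewer Sertoli cells, leptotene/zygotene spermatocytes and round spermatids in adults of both lines. Pachytene spermatocytes were further reduced in ΔIBB/ΔIBB but not in −/−. By PCR in sorted round spermatids, the study found the RNA of Tnp1, Tnp2, Prm1 and Prm2 reduced in ΔIBB/ΔIBB. The 9 genes have no such measurement in sorted cells here. In whole testis RNA, fewer cells of a type and less RNA per cell cannot be told apart, and the part of cell composition in the values of the 9 genes was not tested.

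Of the other lists in the same comparison, 3 of 10 pachytene spermatocyte markers fell (median −0.11), 4 of 10 spermatogonial markers rose and 1 fell (0.32), 2 of 8 Leydig markers rose (0.01), 3 of 8 peritubular and endothelial markers rose and 1 fell (0.28), 2 of 8 macrophage markers rose and 1 fell (0.27), and 4 of 5 erythrocyte markers fell and 1 rose (−0.91). The pachytene markers called were 0 with library-size scaling and 0 with limma on TPM (medians −0.01 and 0.02), and the spermatogonial markers that rose were 7 and 2. Summed TPM in WT and ΔIBB/ΔIBB was 4283 to 4716 and 4493 to 4538 for the pachytene list, 139.5 to 162 and 183 to 205 for the spermatogonial list, 75.5 to 84.6 and 106 to 119 for the peritubular and endothelial list, and 635 to 655 and 536 to 543 for the macrophage list. The macrophage sum fell although 6 of the 8 markers had log2 fold changes above 0, and the marker called lower was Aif1 (−0.42). Only 2 of 6 epididymis markers could be tested and 1 rose, and the list summed to 6.14 to 89.9 TPM in ΔIBB/ΔIBB and 4.89 to 5.83 in WT, with Lcn5 and Lcn8 listed at 0 in at least 1 library of each of these groups. In −/− against WT, 1 of 12 Sertoli markers (Clu) rose and 1 of 10 spermatogonial markers (Gfra1) fell, beside 1.60% of all genes called, and no spermatid marker passed. The Sertoli values were above 0 for 12 of 12 in that comparison, with a median of 0.24 and an unadjusted P under 0.05 for 7, beside 14.9% of all genes. Against −/−, ΔIBB/ΔIBB again showed lower values for 9 of 10 round and 10 of 10 elongating spermatid markers and higher values for 12 of 12 Sertoli markers, beside 16.8% of all genes lower and 13.5% higher. The round spermatid count there was 5 with library-size scaling and 4 with limma on TPM, each with 1 marker higher.

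The other genes of acetylation and histone removal were read from a list of 146, all of which could be tested. In ΔIBB/ΔIBB testes, 60 differed from WT (24 higher and 36 lower), which is 41.1% beside 36.6% of all genes, with a median of −0.005. Scaling by library size gave 51 higher and 20 lower, and limma on TPM 36 higher and 13 lower, so the direction of the list as a whole depends on the scaling. In −/− against WT 1 passed, or 0.685% beside 1.60% of all genes. In ΔIBB/ΔIBB against −/− 46 passed (20 higher and 26 lower), or 31.5% beside 30.3% of all genes. There the other 2 scalings gave 60 higher and 13 lower, and 46 higher and 6 lower.

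The ISWI sublist holds the partners of SMARCA5. Of its 10 genes, 8 passed in ΔIBB/ΔIBB against WT, 6 of them lower, among them Rsf1 (−0.38), Baz1a (−0.28) and Cecr2 (−0.26), and Smarca1, the other mammalian ISWI ATPase, rose (0.74, SE 0.09). With library-size scaling 3 were higher and 3 lower, and with limma on TPM 3 were higher and 2 lower. Of 17 genes of histone ubiquitination, 8 fell, among them Herc2 (−0.41) and Rnf168 (−0.30), which act with RNF8 at DNA breaks, and Ube2b (−0.26), and 2 rose, the larger value being that of Usp22 (0.51), the deubiquitinase of the SAGA complex. With library-size scaling 3 were higher and 4 lower, and with limma on TPM 2 were higher and 3 lower. Of all genes tested in this comparison, 36.6% passed (18.9% lower and 17.7% higher).

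Of 21 subunits of deacetylase corepressors, 7 were higher and 2 lower, and with library-size scaling 12 were higher and 1 lower. The genes called were 42.9% of this sublist and 37.5% of both the deacetylases and the acetyltransferases, beside 36.6% of all genes. Tbl1x (0.47), a partner of HDAC3, and Rbbp7 (0.38) and Sin3b (0.37), partners of HDAC2, were higher, and Ncor1 (−0.22) and Tbl1xr1 (−0.15), which also belong to the HDAC3 complex, were lower. Of the 16 deacetylases, 3 rose and 3 fell: Hdac6 (0.62), Hdac7 (0.53) and Sirt7 (0.35) rose, and Hdac1 (−1.03), Hdac11 (−0.53) and Hdac4 (−0.45) fell, beside 5 higher and 3 lower with library-size scaling and 2 higher and 3 lower with limma on TPM. Of 16 acetyltransferase genes 1 rose and 5 fell, among the latter Crebbp (−0.19), Ep300 (−0.21), Nutm1 (−0.33), whose product recruits p300 in spermatids, and Cdyl (−0.32). With library-size scaling 6 of these 16 were higher and 2 lower, and on TPM with limma 2 were higher and none lower, so the balance of this sublist turns with the scaling.

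Of the 16 subunits of NuA4, 2 rose and 3 fell, with Morf4l2 at 0.43 and Actl6a at −0.24, whereas library-size scaling gave 5 higher and 1 lower and limma on TPM 6 higher and none lower. Of the 11 MSL and NSL subunits, 2 rose, Hcfc1 (0.52) and Ogt (0.23), and none of these partners of KAT8 fell (6 rose with library-size scaling and 4 with limma on TPM). Of 13 other bromodomain genes 1 rose and 3 fell, with Brwd1 (−0.54) and Atad2 (−0.46) lowest, and library-size scaling gave 3 higher and 2 lower. On TPM with limma, Brwd1 had −0.26 (adjusted P = 0.0488). By western blot of whole testis, the study saw no significant difference in BRWD1 protein, and it proposes that its place in the cell is altered. Of 6 CHD genes 2 fell, Chd7 (−0.76) and Chd9 (−0.43), and limma on TPM called neither. Of 20 genes of histone chaperoning and removal, 4 rose and 4 fell, among the latter Tssk6 (−0.36), a kinase needed for histone removal, and Psme4 (−0.26), which encodes the proteasome activator that degrades acetylated histones. That split was 8 higher and 2 lower with library-size scaling and 6 higher and 2 lower with limma on TPM.

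Among the genes of the list called between the lines, those with the greatest differences were Smarca1 (0.62), Hdac6 (0.54), Hdac7 (0.47), Usp22 (0.39) and Rbbp7 (0.36) on the higher side and Hdac11 (−0.56), Chd7 (−0.53), Tssk6 (−0.48), Atad2 (−0.36) and Baz1a (−0.35) on the lower. Limma on TPM did not call Hdac7 in either comparison with ΔIBB/ΔIBB (adjusted P = 0.0848 and 0.0633), nor Chd7 (0.0955 and 0.309), nor Atad2 in this one (0.0836). It and the other scalings kept all of these directions.

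**Figure D4:**
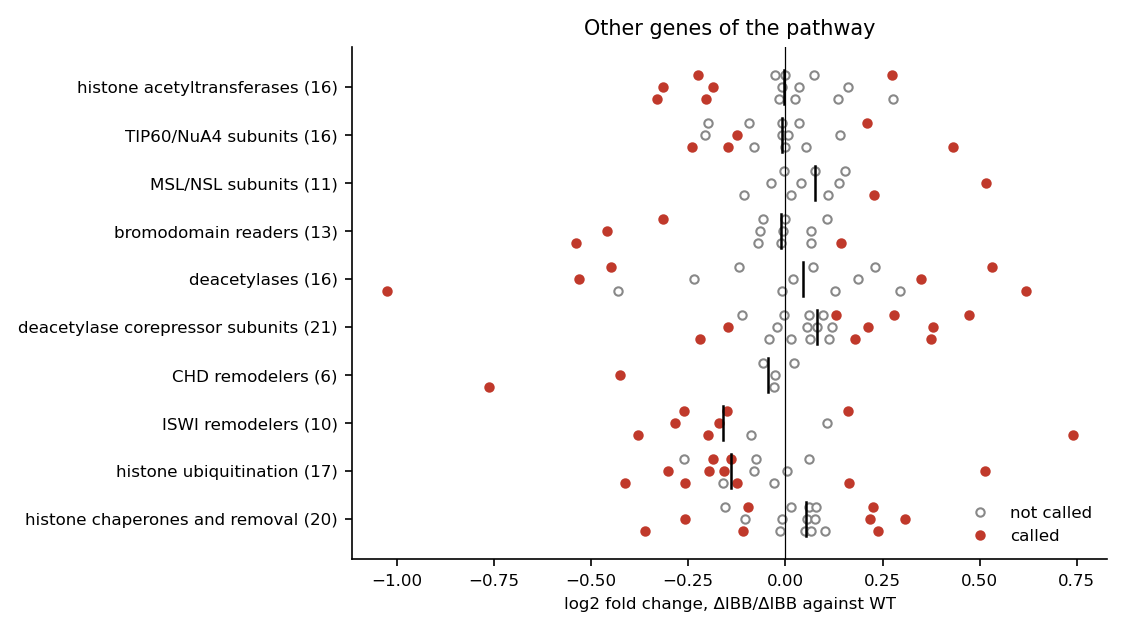
Log2 fold change in ΔIBB/ΔIBB against WT of the 146 other genes of acetylation and histone removal, by sublist (number of genes in brackets), where filled points passed an adjusted P of 0.05 and the bar is the sublist's median. Hdac1 is the point farthest left and Smarca1 the point farthest right.

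Hdac1, the nearest relative of Hdac2, was the gene of the list with the greatest change in both comparisons with WT and the only one called in −/−. It stood at 151, 221 and 214 CPM in WT, at 94.2, 94.7 and 97.7 in ΔIBB/ΔIBB, and at 95.3, 91.2 and 93.2 in −/−. Both lines lay below all WT libraries, and WT replicate 1 lay between the lines and the other WT libraries. Hdac1 fell by 1.03 on the log2 scale in ΔIBB/ΔIBB (SE 0.11, adjusted P = 7.72e-05) and by 1.07 in −/− (SE 0.11, adjusted P = 0.000357, edgeR), and the lines differed by 0.03 (adjusted P = 0.596), a difference that passed with library-size scaling (0.13, adjusted P = 0.018) and on TPM with limma (0.18, adjusted P = 0.0194). On TPM with limma the −/− value was −1.03 (adjusted P = 0.0725).

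Hdac1 (chr4:129516104-129542713) lies 101 kb from Kpna6 (chr4:129643980-129672767). Its processed pseudogene Gm10093 on chromosome 17 shares 99.4% of 1444 aligned bases with it. Gm10093 stood at 10.2, 0.30 and 0.33 CPM in WT, at 18.8, 19.2 and 22.1 in ΔIBB/ΔIBB and at 20.0, 21.2 and 21.9 in −/−, so here too WT replicate 1 lay between the other WT libraries and both lines. With the counts of the gene and the pseudogene summed, the values were −0.78 in ΔIBB/ΔIBB (adjusted P = 0.000151) and −0.80 in −/− (adjusted P = 0.000698). Without WT replicate 1 Hdac1 gave −1.18 and −1.22. The level of Hdac1 in these libraries is uncertain to the extent that reads were divided between the 2 loci, and whether WT replicate 1 carries the genotype of its label was not tested.

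**Figure D5:**
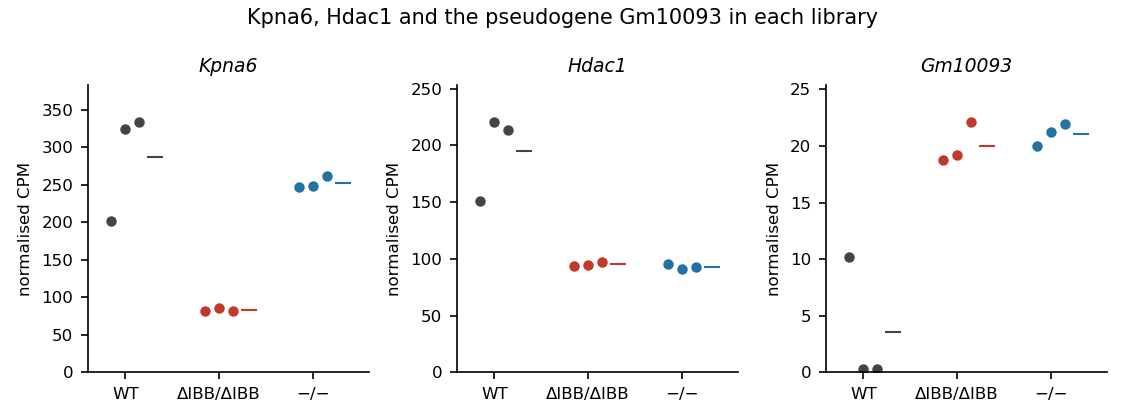
Normalised CPM of Kpna6, Hdac1 and the pseudogene Gm10093 in every library (points, replicates 1 to 3 from left to right) with the group mean (dash). WT replicate 1 lies apart from the other WT libraries in all 3 panels.

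For each of the 9 genes, the 3 protein-coding genes with the most similar profile were taken from 15034, by the root mean square difference of centred log2 CPM over the 9 libraries. Nearest to Brdt was Psme4 with a difference of 0.02, followed by Nsun2 and Zmym4 (both 0.02), while the median gene differed from Brdt by 0.18. Since Psme4 was picked for its likeness over these same libraries, its log2 fold changes of −0.26, −0.09 and −0.18 in the 3 comparisons had to lie close to those of Brdt (−0.26, −0.08 and −0.19) and add nothing to them. Chd5 was nearest to Ap2a1, Ccdc6 and Mrtfb (0.03 each), Kat8 to Atp6v0a2, Fam178b and Dcaf12, and Epc1 to Spata24, Brca2 and Tor1aip2.

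The neighbours of the other 5 genes were Pex6, Galnt10 and Zfp687 for Kat5, Zfp42, Psmd12 and Sycp3 for Smarca5, Top2b, Ist1 and Elac2 for Rnf8, Fkbp4, Psmd4 and Edf1 for Hdac2, and Hras, Ppp1r37 and Fbxo42 for Hdac3. Over all 9 genes the difference from the nearest gene ranged from 0.015 (Smarca5 and Zfp42) to 0.031 (Kat5 and Pex6). The genes' own root mean square deviation ranged from 0.049 (Smarca5) to 0.12 (Chd5), and a gene that varies little lies near any other gene that varies little.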

How the data were processed

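Poly(A) RNA from whole testis of 3 mice per group was sequenced, and the authors deposited, per transcript, estimated counts, which are not normalised between samples, and TPM values, both from kallisto (version 0.45 per the submitters' processing notes; the methods of the paper name another version). The authors tested with sleuth, which was not used here. Of 96626 transcripts, 95301 were assigned by identifier to 32035 genes of GENCODE M21 (GRCm38), which took 99.54 to 99.56% of counts; 1325 were left out. Estimated counts were summed per gene and rounded, filtered with filterByExpr, scaled by TMM and tested with the edgeR 4.0.16 quasi-likelihood test in R 4.3.3 on the 6 samples of the groups compared, with Benjamini-Hochberg adjustment over all genes tested; "called" means an adjusted P below 0.05. P-values measure the spread between these samples. An exact permutation test of 3 against 3 cannot go below 0.1. Confidence intervals are 95%.

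The 9 genes, the 146 other pathway genes and the 10 marker lists were chosen with earlier results of these data known. Named genes are the 9, Kpna6, in each direction up to 5 called list genes, taken by the size of their log2 fold change, the 3 nearest profiles per gene (tested in every comparison, mean of at least 1 TPM), and transcripts with at least 10% of their gene's TPM; further genes were named after their values were seen. Near-identical genes were found with blastn 2.17.0+ (95% identity over at least 0.5 of a transcript). Alternatives were DESeq2 1.42.0, its size factors, library-size scaling, no filter, limma 3.58.1 on log2(TPM + 1), coding transcripts only, near-identical genes summed, all 9 samples in 1 fit, a replicate block and each sample left out. The fit was tested on simulated data. Promoter windows came from RefSeq (GRCm38.p6). The result of 1 list gene is not reported here.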

Additional observations from a re-analysis of the deposited data

Results flagged for a closer look

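Values that differed between the mutant lines by the direct test of ΔIBB/ΔIBB against −/− (edgeR with Benjamini-Hochberg adjustment, log2 fold change) were those of Brdt (−0.19), Chd5 (−0.21) and Epc1 (−0.14) among the 9 genes, and of the targeted Kpna6 (−1.61). Among the named genes of the longer list they were Smarca1 (0.62), Hdac6 (0.54), Hdac7 (0.47), Usp22 (0.39), Rbbp7 (0.36), Baz1a (−0.35), Atad2 (−0.36), Tssk6 (−0.48), Chd7 (−0.53) and Hdac11 (−0.56). The Epc1 difference was lost in 10 of 15 alternative analyses, and those of Hdac7, Chd7 and Atad2 on TPM with limma. Groups of 3 samples are too small for a test of single outlying libraries.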

How the results depend on the processing

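Of 405 repeats of the 27 log2 fold changes of the 9 genes under other settings, 348 kept direction and side of the threshold, 24 lost a call, 13 gained one and 20 changed sign, all 20 in genes that had not passed. In ΔIBB/ΔIBB against WT the sign turned with library-size scaling for Epc1 (0.001) and Smarca5 (0.046), on TPM with limma for Smarca5 (0.046), and for Kat5 when 1 library was left out (−0.027 to 0.052). In −/− against WT it turned for Kat5 with library-size scaling (0.004) and with 1 library left out (−0.058 to 0.025), and for Epc1 on TPM (−0.021). Between the lines it turned for Kat8 with library-size scaling (0.003) and on TPM (0.040), for Smarca5 with near-identical genes summed (−0.039) and with 1 library left out (−0.030 to 0.025), and for Kat5 with 1 library left out (−0.019 to 0.063). The cause of these turns was not tested.

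Counts of the 9 genes called ranged from 2 to 3 in ΔIBB/ΔIBB against WT with 1 library left out (2 without ΔIBB/ΔIBB replicate 1) and reached 5 between the lines with library-size scaling, which split them into 3 higher and 2 lower. In ΔIBB/ΔIBB against WT library-size scaling gave 3 higher and 2 lower, and limma on TPM 3 higher and 1 lower. List genes called in −/− against WT were 3 with DESeq2, 4 without a filter, 0 with limma on TPM and 1 to 2 with 1 library left out (2 without WT replicate 1). Between the lines they were 73 with library-size scaling. Transcripts called in ΔIBB/ΔIBB against WT were 3 without a filter, and 2 to 4 with 1 library left out; between the lines they were 0 with library-size scaling and 0 to 1 with 1 library left out. All genes called in −/− against WT were 299, beside 624 without a filter, 26 with limma on TPM and 92 to 518 with 1 library left out (518 without WT replicate 1).

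Replicate numbers did not pair the samples: deviations of same-numbered samples from their group means correlated across genes at −0.062 to 0.081. With the replicate block the counts of the 9 genes called stayed at 4, 0 and 3, and transcripts called were 3 in ΔIBB/ΔIBB against WT and 0 between the lines. With 3 libraries a group, differences of the size seen in Kat8, Epc1, Rnf8, Hdac2 and Hdac3 lay near the limit of the test, and 1 library decided several of their calls.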

Other observations

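Of the 146 list genes, 13 lie on the X chromosome, a grouping made after the values were seen. In ΔIBB/ΔIBB against WT, 8 of the 13 rose (Hcfc1, Hdac6, Morf4l2, Ogt, Rbbp7, Smarca1, Taf1 and Tbl1x) and 1 fell (Huwe1), with a median log2 fold change of 0.28. Of the 133 on other chromosomes, 16 rose and 35 fell, with a median of −0.01. Over all genes tested, 28.8% of 938 X-linked genes rose and 5.97% fell, beside 17.1% and 19.5% of 17859 others. Between the lines the same count was 8 higher and 1 lower of 13, with Msl3 among the higher in place of Ogt, and in −/− against WT none of the 13 passed (edgeR) with a median of 0.06. The 9 genes themselves are all autosomal.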
